A study of Mus musculus with 4 samples.

Results

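The genes described here encode F-box proteins and carry the symbols Fbxl, Fbxo or Fbxw followed by digits. They were found by symbol in the deposited table, leaving out Fbxw11, Fbxw7 and Fbxo5, which gave 73 of 24561 gene symbols. These genes were read by 100 of 55681 probes, of 60 bases each. One probe read each of 49 genes, and 24 genes had several probes, up to 4.

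L1210 cells come from a lymphocytic leukemia of the mouse (DBA subline 212). The groups were L1210-control, and L1210-Fbxw11a, L1210-Fbxw11c and L1210-Fbxw11d, infected with virus carrying the Fbxw11a, Fbxw11c or Fbxw11d splice variant. The labels give L1210-control as a control overexpression. All 4 lines were stably infected pools sorted for GFP, so infection, the GFP marker and sorting were shared, and none is described as a single clone. Total RNA of each line was labelled with the dye Cy3 and read on 1 Agilent mouse array, so nothing here was tested over replicates and p-values are left out. The L1210-Fbxw11d array lay alone on slide 2 and the 3 others on slide 1, which means that slide and variant cannot be told apart in L1210-Fbxw11d. The 3 comparisons with L1210-control share its single array. The 2 Fbxw11 probes, which lie beside each other in the gene, did not differ 2-fold between any pair of lines. One gave 13150 in L1210-control and 16340 in L1210-Fbxw11a, with 15870 in L1210-Fbxw11c and 13380 for L1210-Fbxw11d, and the other gave 9730, 11240, 11330 and 10990. Whether the viral insert holds the bases they read is not given in the sources used here, so they check the labels in neither direction. The study's own check of the lines was by RT-PCR and western blotting, which was not analysed here. Of the marker lists, 6 of 10 B lineage, 7 of 10 T lineage, 6 of 9 macrophage and monocyte and 3 of 3 pan-leukocyte genes stood well above background on all 4 arrays. The B lineage genes Cd79b, Ebf1, Igll1 and Rag1 did not pass on any array.

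An F-box protein is the substrate-binding part of an SCF ubiquitin ligase. The F-box binds Skp1, which joins it to the scaffold Cul1 and the ring protein Rbx1, while the rest of the protein holds the substrate that is to be marked with ubiquitin. Members of the Fbxw family bind substrates through WD40 repeats, those of the Fbxl family through leucine-rich repeats, and those of the Fbxo family through other domains or by means not known. Substrates include cyclins, cyclin-dependent kinase (CDK) inhibitors, clock proteins and transcription factors, and Fbxw11 (β-TrCP2) itself recognises phosphorylated proteins such as IκB and β-catenin. In bulk RNA, fewer cells with a transcript and less transcript per cell cannot be told apart.

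Of the members, 12 Fbxw genes form a cluster on mouse chromosome 9, and several of these are known from oocytes. The cluster is shown by sequence because some of its promoters differ at few bases while only a part of the genes was detected. In RefSeq (build GRCm38.p6), 53 of the 73 members had promoter sequence, of 250 bases before to 50 after a start site, with 72 start sites in all. The 4 cluster promoters below lie on the minus strand of chromosome 9 and are written 5′ to 3′ on the strand of the gene. They are those of Fbxw21 (chr9:109161970-109162269), Fbxw15 (chr9:109568213-109568512), Fbxw26 (chr9:109746040-109746339) and Fbxw18 (chr9:109702651-109702950). Capitals mark bases that differ from Fbxw21 when the sequences are laid over it without gaps.
Fbxw21: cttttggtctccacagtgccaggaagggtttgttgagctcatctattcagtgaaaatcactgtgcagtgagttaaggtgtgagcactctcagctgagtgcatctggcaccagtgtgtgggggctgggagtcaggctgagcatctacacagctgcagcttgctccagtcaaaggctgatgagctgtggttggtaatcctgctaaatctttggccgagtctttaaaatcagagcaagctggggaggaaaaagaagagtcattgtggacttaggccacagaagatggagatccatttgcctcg
Fbxw15: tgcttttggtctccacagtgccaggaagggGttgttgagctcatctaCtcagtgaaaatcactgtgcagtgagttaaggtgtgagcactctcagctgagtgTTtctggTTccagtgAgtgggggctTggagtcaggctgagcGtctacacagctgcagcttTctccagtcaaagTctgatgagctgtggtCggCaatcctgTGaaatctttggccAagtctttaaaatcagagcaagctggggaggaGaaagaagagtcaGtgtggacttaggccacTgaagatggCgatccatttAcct
Fbxw26: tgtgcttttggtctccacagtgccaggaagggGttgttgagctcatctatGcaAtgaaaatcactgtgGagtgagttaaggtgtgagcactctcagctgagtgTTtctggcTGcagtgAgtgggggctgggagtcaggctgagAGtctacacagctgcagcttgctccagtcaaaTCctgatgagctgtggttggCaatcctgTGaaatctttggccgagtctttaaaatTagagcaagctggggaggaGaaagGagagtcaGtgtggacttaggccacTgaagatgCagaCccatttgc
Fbxw18: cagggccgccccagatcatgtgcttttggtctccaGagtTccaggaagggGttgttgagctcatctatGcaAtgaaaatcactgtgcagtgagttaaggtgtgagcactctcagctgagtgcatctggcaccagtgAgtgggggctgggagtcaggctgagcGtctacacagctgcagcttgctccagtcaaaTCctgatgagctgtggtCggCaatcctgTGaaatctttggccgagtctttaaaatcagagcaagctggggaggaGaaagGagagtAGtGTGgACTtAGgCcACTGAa

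The Fbxw15 promoter matched that of Fbxw21 at 277 of 298 aligned bases (93.0%), the Fbxw26 promoter at 273 of 296 (92.2%) and the Fbxw18 promoter at 247 of 278 (88.8%). The dense capitals at the end of the Fbxw18 promoter come from laying it over without gaps. Fbxw21 holds nearly the same bases there, out of step, so 88.8% understates the match. A probe for Fbxw21 and the probe for Fbxw15 stood well above background on all 4 arrays, and those for Fbxw26 and Fbxw18 on none. The second Fbxw21 probe passed in L1210-Fbxw11a alone. The cluster promoters also differed from those of the other members in their number of CG dinucleotides. Averaged over a gene's start sites, the number was 0 to 4 in 9 cluster genes (median 1) and 2.5 to 56 in 44 other members (median 19), beside a median of 7 over the 27025 genes of the table. Outside the cluster this number did not sort the genes by detection, but few genes there were undetected. Its median was 19 in 39 genes on all 4 arrays and 20 in 3 genes on 1 to 3 arrays. The 2 genes on no array, Fbxl7 and Fbxo36, held 31 and 18. With the cluster included, these medians were 18, 12.5 and 3. The letters TATAAA, searched on both strands, were in 0 of 10 cluster promoters, 0 of 62 promoters of other members and 13.6% of all promoters. The letters CCAAT were in 1 of 10 cluster promoters, 20 of 62 others and 37.4% of all.

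Most F-box genes were detected in L1210 cells. Signals are given in units of the control array after each array was divided by its own 75th percentile, and a probe is well above background where the scanner software calls at least 0.5 of its spots so. By this measure 59 of the 73 genes had a probe well above background on all 4 arrays, 8 on 1 to 3 arrays and 6 on none. Of the 100 probes, 75 (75%) passed on all 4 arrays, against 59.4% of all probes and 64.7% of those with a symbol, and 10 passed on none. The 15 probes of the chromosome 9 cluster passed in 6 cases (40.0%), and the other 85 probes in 69 (81.2%). Probes on all 4 arrays read 15 of 18 Fbxl genes, 31 of 36 Fbxo genes and 13 of 19 Fbxw genes.

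The undetected genes were Fbxl7, Fbxo36, Fbxw16, Fbxw18, Fbxw24 and Fbxw26, of which the 4 Fbxw genes belong to the chromosome 9 cluster. Fbxl13, Fbxl16, Fbxo16, Fbxo43, Fbxo47, Fbxo48, Fbxw14 and Fbxw22 passed on only some arrays. Their brightest probes gave signals below 31 on every array, apart from Fbxo47 in L1210-Fbxw11a and Fbxw14 in L1210-control.

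Levels of most members were steady over the 4 lines. For the 75 probes on all 4 arrays, the highest signal exceeded the lowest by a median of 1.28-fold (0.36 on the log2 scale), the same median fold as for all 21880 such probes with a symbol. The range was under 1.5-fold for 57 member probes (76.0%) and 2-fold or more for 7 (9.33%), against 76.4% and 7.81% of probes with a symbol. Fbxo18 (now Fbh1), a DNA helicase of recombination, was among the steadiest, with 4068 in L1210-control and 4218 in L1210-Fbxw11a, with 4125 in L1210-Fbxw11c and 4132 for L1210-Fbxw11d. Fbxw2 gave 1046, 1060, 1088 and 1051 in the same order of lines. These 2 probes differed by at most 1.04-fold between arrays. The other Fbxw2 probe gave 554, 662, 630 and 612, so that both Fbxw2 probes were lowest in L1210-control.

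The median log2 ratio of the members to L1210-control was 0.03 in L1210-Fbxw11a, over 84 probes. It was 0.02 in L1210-Fbxw11c (83 probes) and 0.02 in L1210-Fbxw11d (84 probes). Over all probes with a symbol it was 0.01, 0.02 and 0.04. Error was taken from replicate spots. The scanner software also gives an error for each probe, which is not part of the SDs given below. That error exceeded the SD over spots on all 4 arrays for both member probes printed on 10 spots. In L1210-control it was 575 against 216 for Fbxl14 and 15.4 against 7.42 for Fbxo32. A ratio past 2 SDs of spots may thus lie within the scanner error. Among the 399 probes printed on 10 spots, the spots of 1 probe in L1210-control had a median SD of 0.39 (log2) at signals of 8.05 to 73.3, of 0.10 at 73.3 to 551, and of 0.06 or less above that. On L1210-Fbxw11d the dimmest probes had an SD of 0.61. The SD given below with a log2 ratio combines these values for both arrays and leaves out culture, sorting and RNA extraction. Ratios exceeded 2 such SDs for 19 of 76 member probes in L1210-Fbxw11a (25%, beside 23.1% of all probes), 20 of 77 (26.0%, beside 24.1%) in L1210-Fbxw11c and 22 of 76 (28.9%, beside 27.4%) in L1210-Fbxw11d.

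At 2-fold or more, 4 of 86 member probes that could be compared set L1210-Fbxw11a apart from L1210-control, 3 higher and 1 lower (background over all probes 5.13%, with 2.71% higher and 2.42% lower). In L1210-Fbxw11c 2 of 85 were lower and none was higher (background 4.47%, with 1.69% higher and 2.78% lower). In L1210-Fbxw11d 6 of 87 were lower and none was higher (background 6.97%, with 0.985% higher and 5.99% lower). The share of members called was thus 4.65%, 2.35% and 6.90% in the same order of lines, no higher than the background over all probes. The choice of background matters. Over the 4 arrays, 9.33% of member probes ranged 2-fold or more, between 7.81% of probes with a symbol and 10.1% of all probes. With arrays centred on their medians, the split in L1210-Fbxw11d became 1 higher and 3 lower. In all, 10 probes of 9 genes were called, and only the Fbxw14 probe was called in all 3 lines, which is 1 of 100 beside a background of 1.20% of all probes.

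**Figure D1:**
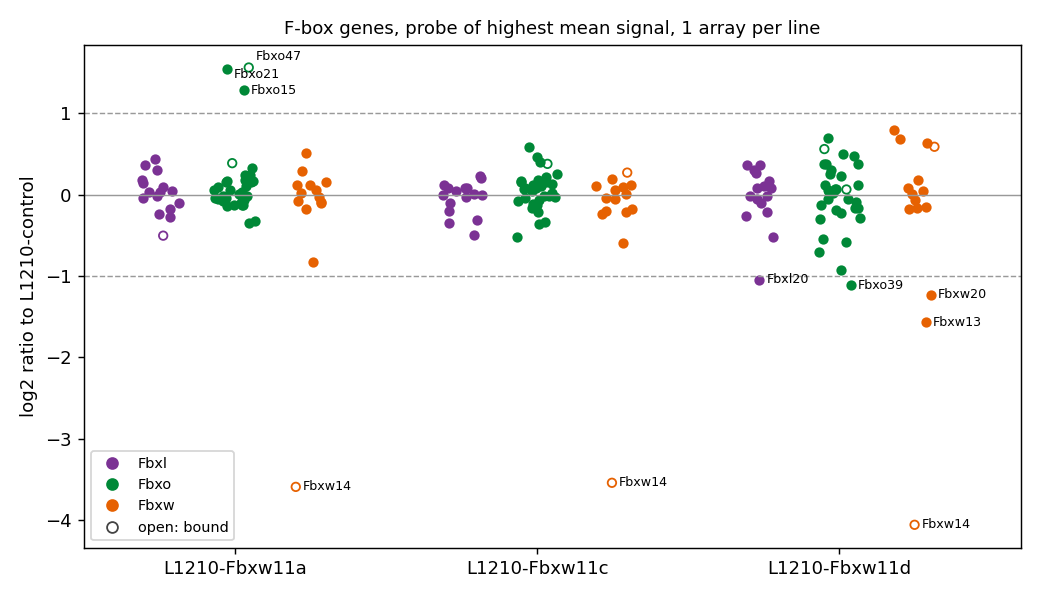
Log2 ratio to L1210-control (vertical axis) of the F-box genes in each variant line, by family, for each gene's probe of highest mean signal; each point is 1 gene on 1 pair of arrays, open points are bounds and dashed lines mark 2-fold. Most points lie within 2-fold of L1210-control, and Fbxw14 is the only gene beyond it in all 3 lines.

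Fbxo15 was higher than L1210-control in all 3 variant lines. It is a marker of embryonic stem cells that Oct4 drives there. Its signal was 147 in L1210-control and 356 in L1210-Fbxw11a, with 220 in L1210-Fbxw11c and 237 for L1210-Fbxw11d. The variant lines were all above the control, with log2 ratios of 1.28 ± 0.15 (SD of spots), 0.58 ± 0.14 and 0.69 ± 0.16, of which only the first passed 2-fold. Normexp correction left all 3 above the control, at 1.01, 0.39 and 0.41, and median centring gave 0.91 in L1210-Fbxw11d. L1210-Fbxw11a was also 1.62-fold above L1210-Fbxw11c and 1.5-fold above L1210-Fbxw11d. There was 1 probe and 1 array for each value.

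Fbxo21, whose protein targets the differentiation inhibitor Eid1, had the widest range of the members detected on all arrays, at 5.54-fold. Its probe lies on chromosome 5 (mm9, 118459897 to 118459956, plus strand), from base 3605 of the transcript, and its first 30 bases are shown because this single probe carries the result.
Fbxo21: gcttcgtttggctgagggagcctatatcac
Its signal was 40.7 in L1210-control and 119 in L1210-Fbxw11a, with 47.4 in L1210-Fbxw11c and 21.4 for L1210-Fbxw11d. L1210-Fbxw11a stood above the 3 other lines and L1210-Fbxw11d below them. The log2 ratios to L1210-control were 1.55 ± 0.40, 0.22 ± 0.55 and -0.92 ± 0.72, so that the last was within 2 SDs of spots. With normexp background correction the ratio in L1210-Fbxw11a was 0.80 and no longer reached 2-fold.

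Fbxo39, a gene known from the testis, was read by 2 probes 205 bases apart on chromosome 11 (mm9, 72132654 to 72132713 and 72132859 to 72132918, plus strand). Their first 30 bases are shown because they named different lines as low.
Fbxo39 upstream probe: tacagaaagctgatcgattcagaacttaac
Fbxo39 downstream probe: gaaggctgggctggtggtgatggcaaggtt
The upstream probe gave 200.3 in L1210-control and 173 in L1210-Fbxw11a, with 90.2 in L1210-Fbxw11c and 148 for L1210-Fbxw11d, and its lowest value was in L1210-Fbxw11c (log2 ratio -1.15 ± 0.14). The downstream probe gave 371, 346, 338 and 171 in the same order, with its lowest value in L1210-Fbxw11d (-1.11 ± 0.16). The other ratios to L1210-control were -0.21 ± 0.15 and -0.43 ± 0.16 for the upstream probe in L1210-Fbxw11a and L1210-Fbxw11d, and -0.10 ± 0.15 and -0.13 ± 0.14 for the downstream probe in L1210-Fbxw11a and L1210-Fbxw11c, of which only -0.43 exceeded 2 SDs. Averaged over the probes, the ratio in L1210-Fbxw11d was -0.77. Median centring put the downstream probe at -0.90 there, and normexp put the upstream probe at -0.84 in L1210-Fbxw11c, both short of 2-fold. No line reached 2-fold by both probes.

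Fbxl20, whose protein (Scrapper) degrades the synaptic vesicle-release protein Rim1, was also read differently by its probes. The brightest probe gave 1768 in L1210-control and 1561 in L1210-Fbxw11a, with 1757 in L1210-Fbxw11c and 855 for L1210-Fbxw11d, and only L1210-Fbxw11d stood apart (-1.05 ± 0.12). A second probe, at base 8419 of the transcript against base 5123, gave 301, 451, 411 and 376, all 3 variant lines being above the control. The mean of these 2 probes in L1210-Fbxw11d was -0.36, short of 2-fold. The other 2 probes were dim, and their L1210-control signals of 13.8 and 18.3 did not pass the background test. Normexp background correction and median centring put the brightest probe at -0.93 and -0.83, short of 2-fold.

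Fbxo47, a gene of meiosis, gave 53.4 in L1210-Fbxw11a and did not stand well above background in L1210-control (13.6) or L1210-Fbxw11c (10.1), while L1210-Fbxw11d gave 13.2. L1210-Fbxw11a was at least 2.95-fold above L1210-control, a log2 bound of 1.56 that dropped to 0.57 after normexp correction. Fbxo40, an F-box gene of muscle, gave 20.9, 23.6 and 33.8 in L1210-control, L1210-Fbxw11a and L1210-Fbxw11c with 1 of its probes, and was not well above background in L1210-Fbxw11d (10.2). This put L1210-Fbxw11d at least 2.01-fold lower than L1210-control. The call was lost with normexp (-0.65), quantile normalization (-0.80), median centring (-0.79) and the authors' normalized values (-0.79). The other Fbxo40 probe gave 23.0, 25.9, 24.4 and 19.7 over the 4 lines, within 1.32-fold. The 6 muscle markers summed to 96.9 to 104 over the arrays, 3 of them being well above background on all 4.

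**Figure D2:**
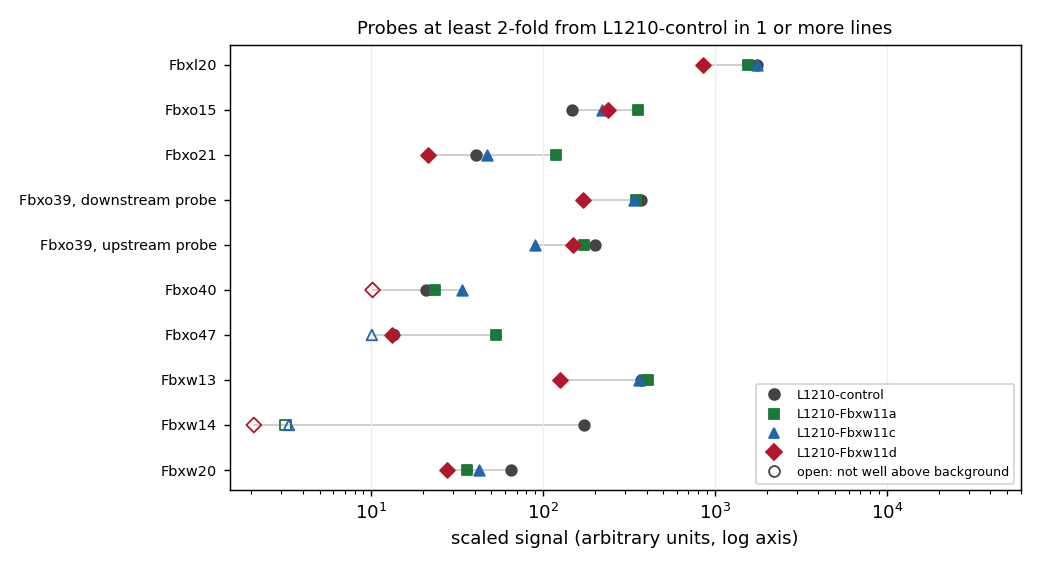
Scaled signal (log axis, arbitrary units) on the 4 arrays for the 10 probes that differed at least 2-fold from L1210-control in any line; each point is 1 array and open points were not well above background. Signals of different probes are not comparable with each other. Fbxw13, Fbxl20 and the downstream Fbxo39 probe are low only in L1210-Fbxw11d, and Fbxo15 is higher than control in every variant line.

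The chromosome 9 cluster held 12 of the 13 members from Fbxw12 up, with probes over 631 kb (mm9, chr9:109042040-109672648). Fbxw17 lies on chromosome 13, and its signals were 2840 in L1210-control and 3475 in L1210-Fbxw11a, with 2738 in L1210-Fbxw11c and 2718 for L1210-Fbxw11d. In the order of the genes along the cluster, Fbxw21, Fbxw13, Fbxw20, Fbxw19, Fbxw15 and Fbxw27 were detected on all 4 arrays. The detected genes did not form 1 block, since Fbxw14, Fbxw22 and Fbxw16 lie between Fbxw20 and Fbxw19, and Fbxw24, Fbxw18 and Fbxw26 between Fbxw15 and Fbxw27. Of the 6 oocyte markers, 2 passed the background test on all arrays and 3 on none, and their summed signal was 144 to 207. The oocyte coat genes Zp1 and Zp2 were not well above background on any array. Whether oocyte genes and the cluster go together was not tested.

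The probes of 4 cluster genes are shown, because the results below rest on them. They lie on the minus strand of chromosome 9 (mm9) and are written 5′ to 3′ on the strand of the gene. For the first pair, capitals mark bases at which the Fbxw20 (chr9:109119947-109120006) and Fbxw15 (chr9:109455116-109455175) probes differ where they overlap without gaps. Those 2 probes matched at 46 of 56 overlapping bases (82.1%). The Fbxw14 probes lie at chr9:109186765-109186824 (upstream) and chr9:109176546-109176605 (downstream), and the Fbxw13 probe spans a splice junction between chr9:109081888-109083542.
Fbxw20: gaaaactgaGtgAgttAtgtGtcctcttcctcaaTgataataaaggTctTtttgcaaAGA
Fbxw15: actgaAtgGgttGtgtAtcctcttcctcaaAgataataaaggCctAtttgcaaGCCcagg
Fbxw14 upstream: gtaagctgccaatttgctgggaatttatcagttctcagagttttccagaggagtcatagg
Fbxw14 downstream: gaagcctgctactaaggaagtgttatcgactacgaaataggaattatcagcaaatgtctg
Fbxw13: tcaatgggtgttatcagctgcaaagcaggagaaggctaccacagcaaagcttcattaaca

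The Fbxw20 and Fbxw15 probes, alike as they are, had opposite ratios in L1210-Fbxw11d. Fbxw20 gave 64.6 in L1210-control and 36.3 in L1210-Fbxw11a, with 42.6 in L1210-Fbxw11c and 27.5 for L1210-Fbxw11d. All 3 variant lines lay below the control, at log2 ratios of -0.83 ± 0.51, -0.60 ± 0.55 and -1.23 ± 0.72. Each was within 2 SDs of spots, and normexp correction moved the last to -0.87. Fbxw15 gave 21.1, 20.5, 22.8 and 32.8 in the same order, with its highest value in L1210-Fbxw11d (0.64 ± 0.72).

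Among the cluster genes detected on all 4 arrays, Fbxw13 differed the most against spot error. Its signal was 373 in L1210-control and 405 in L1210-Fbxw11a, with 361 in L1210-Fbxw11c and 126 for L1210-Fbxw11d. The first 3 lines lay close together and L1210-Fbxw11d was lower by a log2 ratio of -1.57 ± 0.16. It was 3.22-fold below L1210-Fbxw11a and 2.87-fold below L1210-Fbxw11c. Fbxw21, next to it on the chromosome, gave 196, 174, 173 and 221, by its brighter probe, with no line past 2-fold.

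The upstream Fbxw14 probe gave 173 in L1210-control and was not well above background in any variant line (3.17, 3.31 and 2.07). The variant lines were therefore at least 12.05-, 11.6- and 16.6-fold lower than the control. The size depended on the background correction, since normexp gave log2 ratios of -1.74, -1.78 and -2.29, still past 2-fold. This rests on 1 spot on 1 array. The downstream probe of the same gene did not stand well above background in L1210-control (3.66), L1210-Fbxw11a (2.88) or L1210-Fbxw11c (2.95) and gave 13.0 in L1210-Fbxw11d. Among all probes, 67 were well above background in L1210-control alone with a signal of at least 100, and such probes numbered 74 in L1210-Fbxw11a alone, 30 in L1210-Fbxw11c alone and 4 in L1210-Fbxw11d alone.

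The dim genes Fbxw19, Fbxw15, Fbxw22 and Fbxw27 each had their highest signal in L1210-Fbxw11d. Fbxw27 gave 21.1 in L1210-control and 22.1 in L1210-Fbxw11a, with 22.6 in L1210-Fbxw11c and 36.5 for L1210-Fbxw11d (0.79 ± 0.72). Fbxw19 gave 27.2, 30.4, 29.5 and 43.8 (0.69 ± 0.72 in L1210-Fbxw11d), and the brighter Fbxw22 probe did not stand well above background in L1210-control (20.5) and gave 19.6, 24.7 and 30.7 in the variant lines. None of these reached 2-fold and each with an SD was within 2 SDs of spots. The Fbxw27 and Fbxw19 probes resemble the downstream Fbxw14 probe, at 33 of 39 (84.6%) and 24 of 31 (77.4%) overlapping bases. That Fbxw14 probe was highest in L1210-Fbxw11d too, at 13.0. The Fbxw27 probe also matched the second Fbxw21 probe, which passed in L1210-Fbxw11a alone, at 27 of 35 bases (77.1%). Whether these probes read separate transcripts was not tested. The ratio of Fbxw27 in L1210-Fbxw11d was 1.01 with median centring and -0.085 with normexp, so its direction was not stable.

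**Figure D3:**
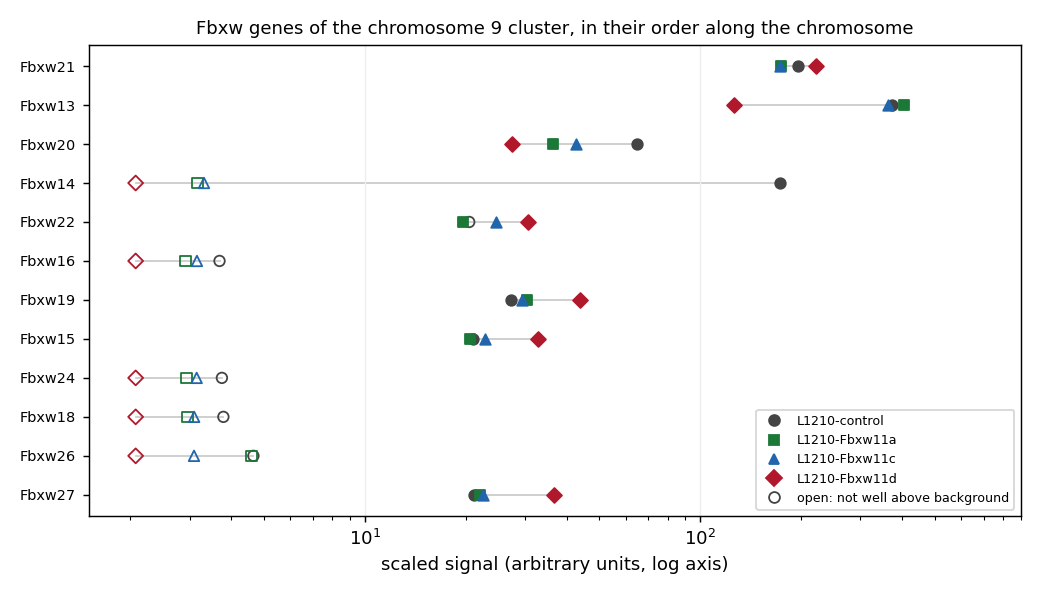
Scaled signal (log axis, arbitrary units) of the 12 Fbxw genes of the chromosome 9 cluster on the 4 arrays, in their order along the chromosome, by each gene's probe of highest mean signal; open points were not well above background. Genes detected on all 4 arrays lie among genes detected on none, and Fbxw14 is detected in L1210-control alone.

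The members were then grouped by what their proteins are known to do, each gene being read by its probe of highest mean signal. All 5 genes for ligases of D-type cyclins, which drive cells from G1 into S phase, were detected on all 4 arrays and none differed 2-fold. Fbxo4 gave 3605 in L1210-control and 4044 in L1210-Fbxw11a, with 4050 in L1210-Fbxw11c and 3896 for L1210-Fbxw11d. Fbxo31 gave 8932, 9290, 10030 and 10500, above L1210-control in all 3 lines, while its second probe (2687, 2312, 2499 and 2575) was below it in all 3. Fbxw8 gave 4995, 4646, 4240 and 5139, and Fbxl8 gave 1311, 1223, 1221 and 1383. The log2 ratios of the 5 genes ran from -0.24 (Fbxw8 in L1210-Fbxw11c) to 0.36 (Fbxl2 in L1210-Fbxw11a), with medians of 0.06, -0.03 and 0.08 for the 3 variant lines in order. The second Fbxl2 probe gave 94.3, 153, 85.5 and 91.2, so that both probes were highest in L1210-Fbxw11a, at 0.70 ± 0.15 by this probe.

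Fbxl12, a ligase for the CDK inhibitor p57, gave 2533 in L1210-control and 2876, 2677 and 2437 in the variant lines. Fbxo7, a partner of CDK6, gave 8813, 9806, 9097 and 9001. Neither gene differed from L1210-control by more than 0.18 on the log2 scale. Fbxl21, a gene of the circadian clock, was lower in L1210-Fbxw11c and L1210-Fbxw11d by both of its 2 probes. Only the brighter probe was past 2 SDs of spots. Its brighter probe gave 182 in L1210-control and 177 in L1210-Fbxw11a, with 129 in L1210-Fbxw11c and 126 for L1210-Fbxw11d, at log2 ratios of -0.04 ± 0.15, -0.50 ± 0.14 and -0.53 ± 0.16. The dimmer probe gave -0.09 ± 0.15, -0.52 ± 0.40 and -0.57 ± 0.62, all within 2 SDs. Its signals in L1210-Fbxw11c and L1210-Fbxw11d, 71.9 and 69.2, lay just below 73.3, where the SD taken from spots steps up. These differences fell short of 1.5-fold.

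Fbxl5, which senses iron and degrades Irp2, gave 1781 in L1210-control and 1896 in L1210-Fbxw11a, with 1933 in L1210-Fbxw11c and 2288 for L1210-Fbxw11d, the last at 0.36 ± 0.11. Its second, dim probe gave 26.9, 36.9, 33.1 and 22.2 and was lowest in L1210-Fbxw11d instead. Fbxo11 and Fbxo10 encode ligases for Bcl6 and Bcl2, regulators of B cell fate and survival. Fbxo11 gave 1045, 1065, 1161 and 1358 in the same order, and Fbxo10 gave 648, 631, 708 and 841. Both were highest in L1210-Fbxw11d, at a log2 ratio of 0.38.

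The 5 genes of proteins with a sugar-binding type of domain, Fbxo2, Fbxo6, Fbxo17, Fbxo27 and Fbxo44, were all detected on all arrays. Fbxo6, Fbxo44 and Fbxo2 are neighbours on chromosome 4, and Fbxo27 and Fbxo17 on chromosome 7. Fbxo6 gave 11670 in L1210-control and 12550 in L1210-Fbxw11a, with 10810 in L1210-Fbxw11c and 12190 for L1210-Fbxw11d. Fbxo17 gave 9516, 10560, 13060 and 11360 over the lines. Its second probe gave 129, 138, 144 and 97.1. Both Fbxo17 probes were highest in L1210-Fbxw11c, at 0.46 ± 0.08 by the brighter, and they had opposite ratios in L1210-Fbxw11d. Fbxo2 gave 2670, 2134, 3182 and 2767. Fbxo44 was lowest in L1210-Fbxw11c, with 323, 254, 225 and 283 over the lines, by its brighter probe. The second probe gave 62.6, 44.5, 48.6 and 57.9 and was lowest in L1210-Fbxw11a, with ratios all within 1 SD of spots (-0.49 ± 0.51, -0.37 ± 0.55 and -0.11 ± 0.72). Fbxo27 gave 70.1, 64.0, 66.6 and 46.9.

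Among the genes of muscle wasting, Fbxo32 (atrogin-1) and, among regulators of Snail, Fbxl14 were each printed on 10 spots, so their error within an array was measured directly. Fbxo32 gave 152 ± 7.42 (SD, n = 9 spots) in L1210-control and 146 ± 11.9 (n = 10) in L1210-Fbxw11a, with 152 ± 14 (n = 10) in L1210-Fbxw11c and 136 ± 8.07 (n = 10) for L1210-Fbxw11d. The spots of all 4 arrays overlapped. The mean in L1210-Fbxw11d was below L1210-control by a log2 ratio of -0.16 ± 0.05 (SD of the mean over spots), and median centring turned this to 0.056. Fbxl14 gave 5745 ± 216 (n = 10), 5890 ± 415 (n = 10), 6724 ± 341 (n = 9) and 7096 ± 431 (n = 9). Every L1210-Fbxw11c and L1210-Fbxw11d spot lay above every L1210-control spot on this scale, the lowest L1210-Fbxw11c spot by little (6142 against 6123), while L1210-Fbxw11a overlapped the control. The differences were small, at log2 ratios of 0.03, 0.23 and 0.30, and depended on the scaling. With quantile normalization the ratio of L1210-Fbxw11c was 0.16. That of L1210-Fbxw11d was 0.20 with quantile normalization against 0.52 with median centring. Fbxo30 gave 691, 660, 744 and 898 over the lines.

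**Figure D4:**
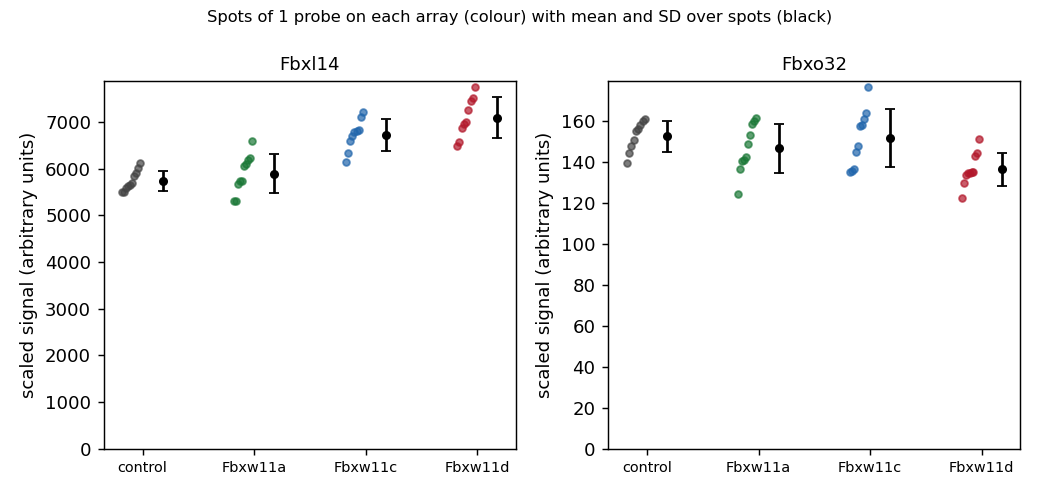
Scaled signal (arbitrary units, axis from 0) of every spot of the Fbxl14 and Fbxo32 probes on each array, with the mean and SD over 9 or 10 spots in black. At this scaling the Fbxl14 spots of L1210-Fbxw11c and L1210-Fbxw11d lie above those of L1210-control, and the Fbxo32 spots of the 4 arrays overlap.

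Fbxw5, which limits centriole duplication, gave 5679 in L1210-control and 6169 in L1210-Fbxw11a, with 5711 in L1210-Fbxw11c and 5093 for L1210-Fbxw11d. Of the genes known from the synapse, Fbxo45 gave 374, 354, 422 and 520 and was highest in L1210-Fbxw11d (0.47 ± 0.16), whereas Fbxo41 gave 31.7, 37.3, 30.3 and 19.5 and was lowest there (-0.70 ± 0.72). The genes Fbxo22 and Fbxo42, both tied to p53, differed by at most 0.17 on the log2 scale from L1210-control. Fbxl4, a mitochondrial protein needed to keep mitochondrial DNA, gave 1044, 1030, 1072 and 1123, and its second probe 468, 477, 454 and 477.

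Of the 6 genes known from stem cells and the germ line, Fbxo15, Fbxo24, Fbxo39 and Fbxw10 were detected on all 4 arrays. Fbxo24 gave 243 in L1210-control and 304 in L1210-Fbxw11a, with 190 in L1210-Fbxw11c and 167 for L1210-Fbxw11d, at log2 ratios of 0.32 ± 0.15, -0.36 ± 0.14 and -0.54 ± 0.16. Fbxw10 gave 128, 182, 111 and 113, and only L1210-Fbxw11a stood apart (0.51 ± 0.15). Fbxo43 (Emi2), which holds the egg in meiotic arrest, was well above background in L1210-Fbxw11c alone, at 19.1. Its signal of 16.4 in L1210-control was below the lowest that passed on that array.

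**Figure D5:**
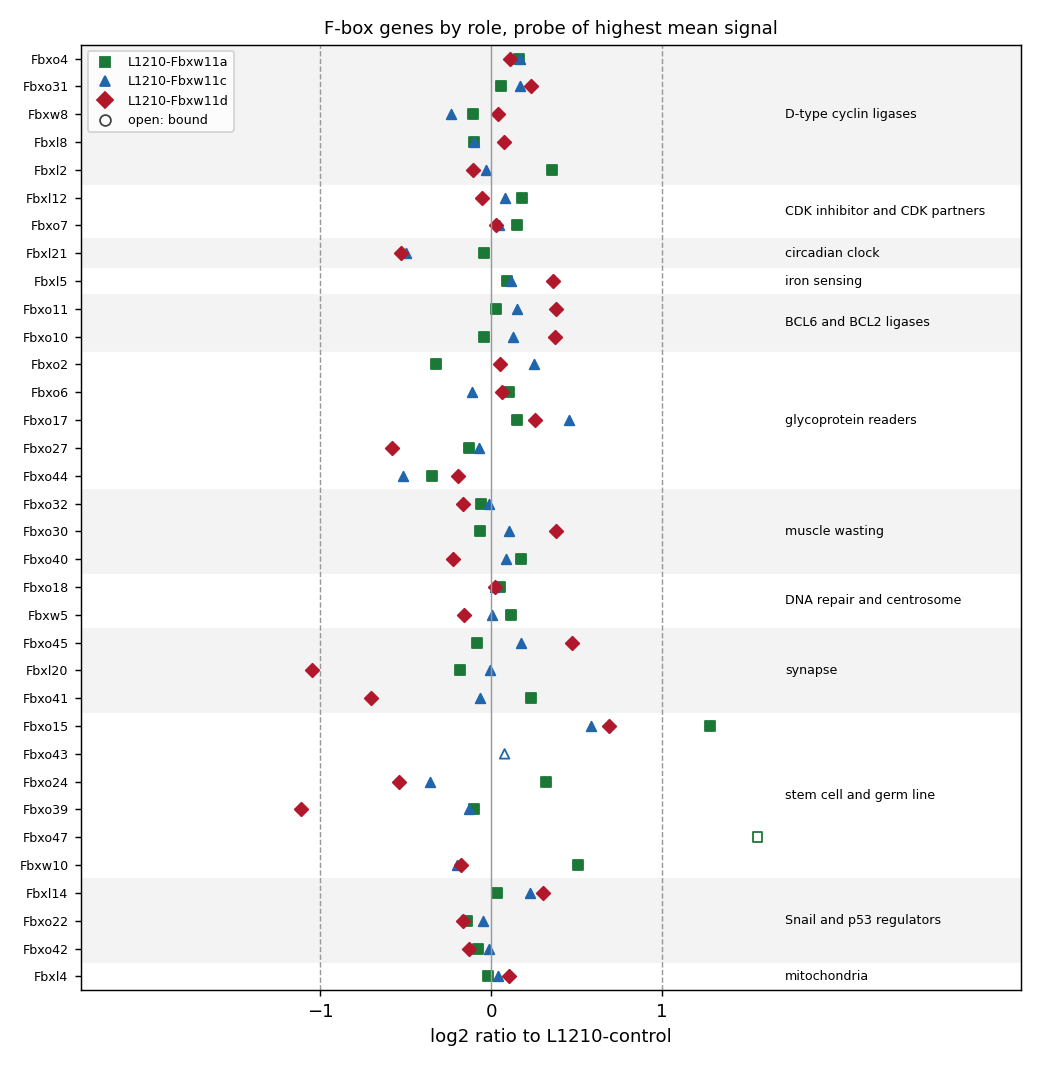
Log2 ratio to L1210-control (horizontal axis) of F-box genes grouped by known role, by each gene's probe of highest mean signal; symbols are the variant lines, open symbols are bounds and dashed lines mark 2-fold. Fbxo15 and Fbxo47 in L1210-Fbxw11a and Fbxl20 and Fbxo39 in L1210-Fbxw11d lie beyond 2-fold.

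Of the 24 genes with several probes, 16 had at least 2 probes well above background on all 4 arrays. Their probes gave the same direction against L1210-control in 29 of 48 pairs of a gene and a line. The log2 ratios of a gene's probes differed by a median of 0.16 and by at most 1.37, for Fbxl20 in L1210-Fbxw11d.

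Compared with each other, the variant lines differed 2-fold in 2 member probes between L1210-Fbxw11a and L1210-Fbxw11c (background 4.92%, with 3.14% higher and 1.78% lower in the line named first), 6 between L1210-Fbxw11a and L1210-Fbxw11d (background 7.34%, with 6.29% and 1.05%) and 4 between L1210-Fbxw11c and L1210-Fbxw11d (background 5.26%, with 4.38% and 0.875%). Fbxo21 was the gene called in all 3 of these comparisons, with L1210-Fbxw11a 2.51-fold above L1210-Fbxw11c and 5.54-fold above L1210-Fbxw11d, and L1210-Fbxw11c 2.21-fold above L1210-Fbxw11d. The last of these was within 2 SDs of spots (log2 1.14 ± 0.72), and normexp correction left Fbxo21 past 2-fold only between L1210-Fbxw11a and L1210-Fbxw11d. Besides Fbxo21, the calls were Fbxo47 between L1210-Fbxw11a and L1210-Fbxw11c, Fbxo39, Fbxo40, Fbxo47, Fbxw13 and a dim second Fbxw21 probe (at least 2.06-fold) between L1210-Fbxw11a and L1210-Fbxw11d, and Fbxl20, Fbxo40 and Fbxw13 between L1210-Fbxw11c and L1210-Fbxw11d. In all 12 calls the line named first was the higher. After quantile normalization there were again 6 calls between L1210-Fbxw11a and L1210-Fbxw11d, 3 higher and 3 lower in L1210-Fbxw11a. The called Fbxo21, Fbxw13, Fbxo39 and Fbxo40 probes still had the higher ratio to L1210-control in L1210-Fbxw11a. The 3 lower calls were thus not theirs.

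Of 17 genes of the SCF core and of neddylation, the modification that switches cullins on, 16 were detected on all 4 arrays, including Skp1a, Cul1 and Rbx1. These 16 stayed within 2-fold of L1210-control in all 3 lines. Cand2 gave 24.9 in L1210-control and was not well above background in the variant lines, so its ratios are bounds, of -0.80, -0.75 and -1.26, of which only the last passes 2-fold and the others leave the size unknown. The list's median log2 ratios were 0.04, 0.09 and 0.18. Of 7 F-box genes with other symbols, 6 were detected on all arrays. Ccnf (cyclin F) gave 7578 in L1210-control and 9727 in L1210-Fbxw11a, with 12870 in L1210-Fbxw11c and 13180 for L1210-Fbxw11d, at log2 ratios of 0.36, 0.76 and 0.80. Skp2, the ligase for p27, gave 1388, 1612, 1674 and 1787, and Btrc (β-TrCP1), the closest relative of Fbxw11, gave 281, 273, 267 and 305. Nccrp1 was the gene of this list called, at -1.12 in L1210-Fbxw11d.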

How the data were processed

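The authors deposited, for each of the 4 arrays, the output of Agilent Feature Extraction (version 9.1 in the submitters' processing notes, 10.7.1.1 in the file headers) with background-corrected signal intensity and flags per spot. They also deposited 1 table with the linear signal intensity, normalized log2 values, detection flags, symbols and mm9 coordinates, and the normalization is not given in the sources used here. The deposited other values, the flags for outliers and spots well above background, were used as filters.

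Control spots and spots flagged as outliers (3 among the members' spots) were left out. Values are log2 of the processed signal minus the 75th percentile of the array's gene spots (620.2, 627, 672 and 954), averaged over the spots of a probe. Probes well above background on either array of a comparison were compared. If the other array was below, the fold is a bound against its own signal or the lowest well-above-background signal, whichever was higher. With 1 array per line, a fold of 2 was the threshold, and the number of arrays limits the precision. Members and lists were chosen with earlier results of these data known. Members named were those called, the 10 of widest range, those 1.5-fold in the same direction in all 3 lines and those of fixed role groups. Members outside this rule are given by counts and ranges, and 1 gene is not reported here. Symbols of 72 members were current in RefSeq and 1 had changed. Alternatives were normexp (limma 3.58.1, offset 50), quantile normalization, median centring, the authors' log2 values, flagged spots kept, and other filters, thresholds and probe rules. Software was Python 3.11.15 (pandas 2.3.3, numpy 2.4.6) and R 4.3.3.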

Additional observations from a re-analysis of the deposited data

Results flagged for a closer look

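Fbxo21 lay on opposite sides of L1210-control in different lines, at a log2 ratio of 1.55 ± 0.40 (SD of spots) in L1210-Fbxw11a, or 0.80 with normexp, and of -0.92 ± 0.72 in L1210-Fbxw11d, which is within 2 SDs. One dim Fbxo40 probe did so too, at 0.70 ± 0.55 in L1210-Fbxw11c, which is within 2 SDs and 0.11 with normexp, and at a bound of -1.01 in L1210-Fbxw11d, which fell short of 2-fold under 4 alternatives. Each direction rests on 1 array, and the difference between the lines was not tested. A probe named Fbxw25 in the scanner files, which has no symbol in the deposited table and so is no member, was well above background on all 4 arrays and gave 59.3 in L1210-control and 94.2 in L1210-Fbxw11d, a log2 ratio of 0.67 ± 0.41, within 2 SDs.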

How the results depend on the processing

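Each line has 1 array, so no array could be left out. No paired analysis was possible because each group holds 1 sample. Against L1210-control L1210-Fbxw11a had 4 called probes, L1210-Fbxw11c had 2 and L1210-Fbxw11d had 6. They became 2, 1 and 3 with normexp correction, 8, 4 and 10 with no filter on dim probes, 8, 4 and 13 at a threshold of 1.5, and 1, 1 and 1 at 3. With probes well above background on both arrays, L1210-Fbxw11a had 2 and L1210-Fbxw11c 1, and by gene L1210-Fbxw11c had 1. Between variant lines, normexp gave 0 calls for L1210-Fbxw11a against L1210-Fbxw11c, 3 for L1210-Fbxw11a against L1210-Fbxw11d and 1 for L1210-Fbxw11c against L1210-Fbxw11d, and the filter on both arrays gave 1 for the first. Median centring moved the members' median in L1210-Fbxw11d to 0.24, and that of all probes to 0.21. The mean over all 4 Fbxl20 probes in L1210-Fbxw11d was 0.079, but it includes 2 probes not well above background in L1210-control. Over the 2 probes above background on both arrays, an alternative chosen after seeing the data, it was -0.36, the direction of the brightest probe. Of all called probes, 14.1% were higher in L1210-Fbxw11d, and this share was 29.6% with quantile normalization, 30.1% with the authors' values, 35.6% with median centring and 4.09% with normexp. In L1210-Fbxw11c, 37.9% were higher, and 25.6% with normexp. Between variant lines the share was 63.8% for L1210-Fbxw11a against L1210-Fbxw11c (74.8% with normexp), 85.7% against L1210-Fbxw11d (97.1% with normexp, 66.0% with quantile) and 83.3% for L1210-Fbxw11c against L1210-Fbxw11d (97.4% and 70.0%). The cause of these shifts was not tested. Detection counts, the median range and the other medians moved by less than the spread. Below a signal of about 73.3 the spread between spots limits what can be read.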

Other observations

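Some probes for F-box loci fell outside the symbol rule. The probe named Fbxw25 in the scanner files (mm9, chr9:109547636-109547695) lies inside the chromosome 9 cluster, between Fbxw24 and Fbxw18, and gave 59.3 in L1210-control and 45.3 in L1210-Fbxw11a, with 59.7 in L1210-Fbxw11c and 94.2 for L1210-Fbxw11d. Its neighbours Fbxw24 and Fbxw18 were not well above background on any array. A probe named Fbxo16 there, without a symbol in the deposited table, gave 83.4, 72.7, 91.4 and 64.3 over the same lines, while the Fbxo16 probe that has the symbol gave at most 26.6. The antisense gene Fbxl12os was read at 6099, 5076, 5382 and 5719 by its brightest probe, and its other 2 probes stayed below 17 on every array.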
